A study of Homo sapiens with 11 samples.

Results

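The genes described here are 6 histone genes of MDA-MB-231 cells, an established triple-negative human breast cancer cell line: the core histone genes H2AC6, H2BC5, H2BC21 and H4C8 and the linker histone genes H1-2 and H1-4. They were taken as the probe sets annotated to exactly 1 of these symbols on Affymetrix HG-U133 Plus 2.0 arrays, which gave 8 probe sets and 6 of 19775 measured genes. The symbols had been picked because canonical histone genes were low in E2-BSA arrays of this same data set, so differences between E2-BSA and its matched arrays are a description and carry no test. Before every treatment, which lasted 3 h, cells spent 4 h in charcoal-stripped serum. E2-BSA is estradiol bound to the serum protein albumin, a form meant to stay outside the cell. It was given at 1 µM on 2 arrays, and on 1 array each together with 10 µM ICI or 10 µM G15. ICI stands for an estrogen receptor antagonist that the labels abbreviate, and G15 blocks the membrane receptor GPER. There was 1 array each for 1 µM free estradiol, 10 µM ICI alone, 10 µM G15 alone, 1 µM BSA (the carrier protein) and 0.1% ethanol (the vehicle of estradiol), and 2 arrays of untreated control. The 11 arrays all come from 1 cell line, and the labels do not say whether duplicates came from separate cultures, so p-values measure only the spread between these arrays.

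Pairs of the histones H2A, H2B, H3 and H4 form the protein core around which DNA is wrapped, and the linker histone H1 binds the DNA that enters and leaves it. Most genes of these proteins are switched on in S phase, when new DNA has to be packed, and their messengers usually end in a stem-loop bound by SLBP and not in a poly(A) tail. Some of them, H2AC6, H2BC5 and H2BC21 among them, are known to give polyadenylated messengers as well, which labelling from oligo(dT) primers captures best. The genes lie in clusters of near-identical copies, so a probe set can read more than the gene it is annotated to, and the values below are uncertain to that extent.

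On GRCh38.p14, 5 of the genes lie in the large histone cluster of chromosome 6: H1-2 at chr6:26055740-26056470, H2AC6 at chr6:26124172-26124690, H1-4 at chr6:26156329-26157115, H2BC5 at chr6:26158121-26171349 and H4C8 at chr6:26285126-26285534. H2BC21 lies in the smaller cluster of chromosome 1, at chr1:149884459-149886682. All are protein-coding. The promoters of 4 genes are printed from RefSeq, on the gene's own strand, from 250 bases before to 50 bases after its start. They show elements that these 4 promoters share and elements found in only the H2A/H2B or only the linker promoters among them. H2AC6 is on the plus strand (chr6:26123922-26124221), H2BC21 on the minus strand (chr1:149886633-149886932), H1-2 on the minus strand (chr6:26056421-26056720) and H1-4 on the plus strand (chr6:26156079-26156378). Capitals mark every match, on either strand, to 5 motifs. The first is CCAAT, the usual site of the factor NF-Y. The TATA box was searched for in the form TATAAA. A second form of that box, searched for on its own, was TATATA. The octamer was searched for as ATTTGCAT, and the H1 box, an element of linker histone promoters, as AAACACA.
H2AC6: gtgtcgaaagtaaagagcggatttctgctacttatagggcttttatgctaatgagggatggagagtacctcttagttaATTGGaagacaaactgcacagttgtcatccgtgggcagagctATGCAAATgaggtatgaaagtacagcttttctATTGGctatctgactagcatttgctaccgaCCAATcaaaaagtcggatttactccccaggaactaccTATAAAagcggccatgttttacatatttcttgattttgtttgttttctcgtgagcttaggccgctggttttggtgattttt
H2BC21: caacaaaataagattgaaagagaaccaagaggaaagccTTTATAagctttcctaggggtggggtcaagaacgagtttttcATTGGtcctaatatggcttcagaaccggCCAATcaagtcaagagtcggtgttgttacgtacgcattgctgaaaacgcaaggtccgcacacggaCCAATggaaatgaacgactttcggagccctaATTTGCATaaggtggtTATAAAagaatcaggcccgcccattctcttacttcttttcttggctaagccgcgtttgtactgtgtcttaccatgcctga
H1-2: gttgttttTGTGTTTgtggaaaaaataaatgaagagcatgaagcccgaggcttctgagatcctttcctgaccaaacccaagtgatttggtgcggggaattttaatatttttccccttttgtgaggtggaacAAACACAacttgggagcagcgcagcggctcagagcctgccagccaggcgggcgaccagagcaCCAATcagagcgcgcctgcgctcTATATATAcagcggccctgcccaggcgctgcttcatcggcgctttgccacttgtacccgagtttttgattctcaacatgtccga
H1-4: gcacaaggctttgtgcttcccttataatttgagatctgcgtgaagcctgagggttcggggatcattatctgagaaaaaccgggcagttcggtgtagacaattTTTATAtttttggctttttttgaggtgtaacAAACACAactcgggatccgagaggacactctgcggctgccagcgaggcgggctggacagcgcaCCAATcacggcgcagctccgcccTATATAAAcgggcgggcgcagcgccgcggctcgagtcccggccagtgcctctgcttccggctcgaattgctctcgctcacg

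H2AC6 and H2BC21 each belong to a divergent H2A and H2B gene pair: 255 of the 300 promoter bases of H2AC6 are also promoter bases of H2BC4 on the other strand, and 265 of those of H2BC21 are shared with H2AC20. Both held 1 octamer, an element of H2B promoters bound by the POU2F1 product, with its first base at -130 from the start of H2AC6 and at -46 from that of H2BC21. The window of H2BC5, also an H2B gene, held no octamer. The octamer occurred in 1.80% of 27305 promoters and in 26 of the 64 promoters of the listed canonical and linker histone genes. The H1 box was present in H1-2 and H1-4, with first bases at -119 and -117, once more at -242 in H1-2, and in 5.76% of all promoters. It was in 9 of the 64 listed histone promoters, where the list holds 6 linker genes, so it was not confined to these. CCAAT was found in 5 of the 6 genes, H4C8 being the exception, against 35.7% of all promoters and 54 of the 64. TATAAA was found in 4 of the 6, H1-2 and H4C8 being the exceptions, against 11.95% of all promoters and 42 of the 64. H1-2 and H1-4 carried TATATA (4.25% of all promoters), which in H1-4 overlaps TATAAA. The palindromic consensus estrogen response element was in 0 of the 6 windows and was in 0.0659% of all promoters. These are matches of letters, and no binding was measured.

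The deposited values are on a log2 scale and centred per probe set, so that 0 is near a probe set's median and no absolute level can be given. For the same reason the markers of the cell line could not be checked. Control transcripts spiked into the RNA (poly-A controls) parted the arrays into a set of 3 (first E2-BSA, estradiol and first control array, with means over 24 probe sets of 1.40, 1.58 and 1.62) and a set of 8 (between -0.56 and 0.10). In the set of 3 against the set of 8, 24.1% of all genes passed in limma at an adjusted p under 0.05. The histone genes were therefore compared within these sets. A difference of 0.5 on the log2 scale (1.41-fold) is used to count genes where there is 1 array on a side, and such a comparison has no replicate check.

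H2AC6 encodes a canonical H2A. Within the set of 3 it stood at -1.41 in the first E2-BSA array, 0.22 with estradiol and 1.10 in the first control array. Within the set of 8 it stood at -0.68 in the second E2-BSA array and -0.07 in the second control array, and at 0.25 with E2-BSA and ICI, 0.36 with ICI, 0.0077 with E2-BSA and G15, 0.24 with G15, -0.14 with BSA and -0.0077 with ethanol. The E2-BSA arrays without an antagonist were the lowest array of either set, and the first control array was the highest of all 11. The values of the other arrays of the set of 8 lay between -0.14 and 0.36, above the second E2-BSA array.

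H2BC21, an H2B gene of the chromosome 1 cluster, followed a like order within the sets but at another height between them. It stood at -0.03 in the first E2-BSA array, 0.75 with estradiol and 1.45 in the first control array. In the set of 8 it stood at -0.73 in the second E2-BSA array and -0.05 in the second control array, and at 0.30 with E2-BSA and ICI, 0.03 with ICI, 0.09 with E2-BSA and G15, -0.05 with G15, -0.04 with BSA and 0.22 with ethanol. The second E2-BSA array was again apart from the other 7, which lay between -0.05 and 0.30.

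H2BC5, another H2B gene, stood at -0.71 in the first E2-BSA array, 0.13 with estradiol and 0.45 in the first control array. In the set of 8 it stood at -0.27 in the second E2-BSA array and 0.09 in the second control array, and between -0.14 (G15) and 0.27 (E2-BSA with G15) in the other 6. Its probe sets gave the same order in the set of 3: the difference of the first E2-BSA array from the first control array was -1.31 in one and -0.998 in the other, and that of the second arrays was -0.41 and -0.30.

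H4C8, an H4 gene, stood at -0.31 in the first E2-BSA array, 0.32 with estradiol and 0.75 in the first control array. In the set of 8 it stood at -0.39 in the second E2-BSA array and 0.07 in the second control array, but the lowest value there, -0.64, belonged to E2-BSA with ICI and the highest, 0.53, to E2-BSA with G15. Its probe sets differed by -0.98 and -1.14 between the first E2-BSA and first control array, and by -0.35 and -0.58 between the second arrays. They disagreed on ICI: the ICI array was 0.85 below the second control array in one (a difference of -0.85) and 0.24 above it in the other. The same held for G15 (-1.02 and 0.18) and BSA (0.11 and -0.84) against the second control array. It also held for E2-BSA with ICI against the second E2-BSA array (-0.99 and 0.50). In these comparisons the value of H4C8 is a mean of probe sets of opposite sign. A further 5 probe sets are annotated to H4C8 together with other H4 genes. Their difference between the first arrays had a median of 0.05 and ranged from -0.45 to 0.20, so none was as low as the probe sets read as H4C8 alone. Between the second arrays 4 of these 5 were lower, with a median of -0.09 and a lowest value of -0.19.

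The linker histone gene H1-2 stood at -1.74 in the first E2-BSA array, -0.87 with estradiol and -0.29 in the first control array. All 8 values of the other set were above these, at -0.0042 in the second E2-BSA array and 0.16 in the second control array, and between 0.19 (BSA) and 0.62 (G15) in the other 6. H1-4, another linker gene, did not share the order. It stood at -0.32 in the first E2-BSA array, -0.69 with estradiol and 0.04 in the first control array. In the set of 8 it stood at -0.01 in the second E2-BSA array, -0.10 in the second control array and -0.64 with E2-BSA and G15, while G15 alone gave 0.70 and ICI 0.40 with and without E2-BSA.

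**Figure D1:**
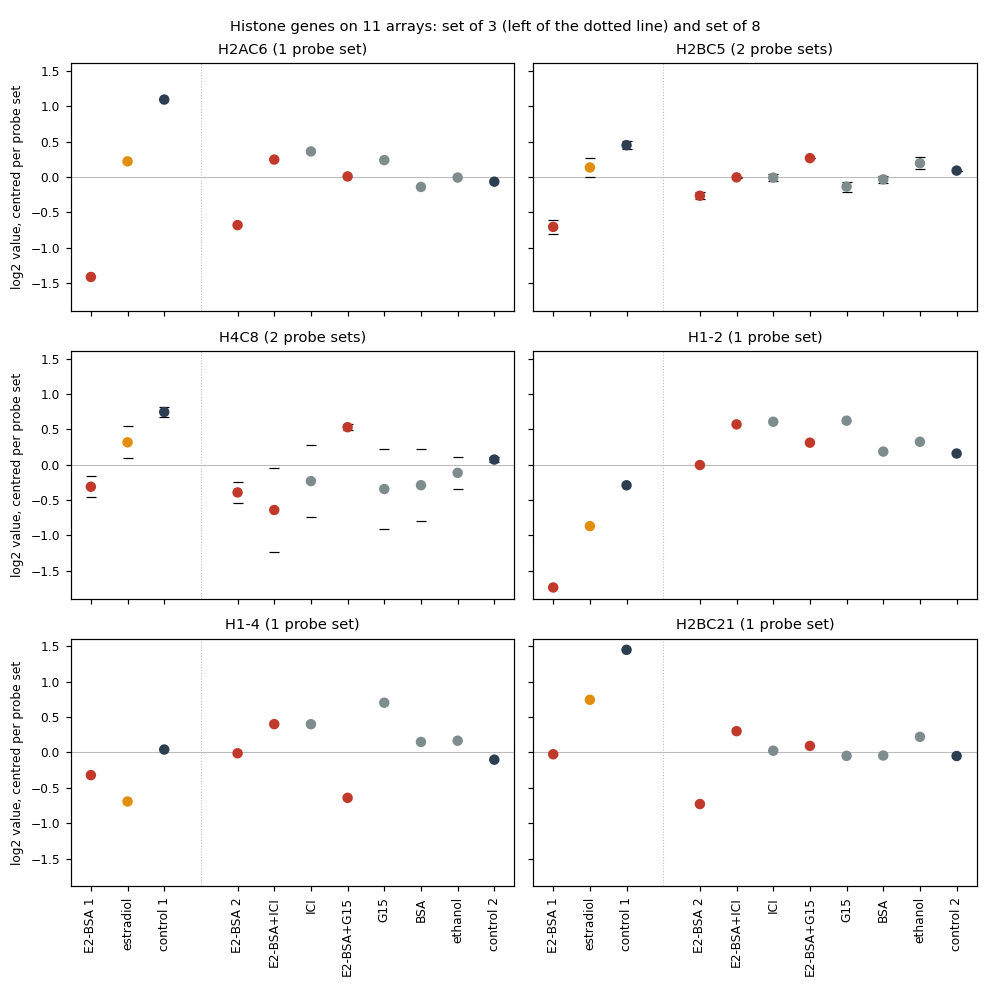
Value of each of the 6 histone genes on each array, on the log2 scale centred per probe set (dots, the mean of a gene's probe sets; dashes, single probe sets where there are 2). Red dots are arrays with E2-BSA, orange is estradiol, grey the antagonists, BSA and ethanol, and dark blue the controls; H2AC6 runs between -1.41 in the first E2-BSA array and 1.10 in the first control array.

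E2-BSA could be set against a matched array in 4 pairs: the first E2-BSA and control arrays, the second ones, and the pairs with ICI or with G15 in both arrays. Since the genes were chosen on this contrast, the following values describe them only. Between the first arrays all 6 genes were lower with E2-BSA (50.5% of all genes were), with a median of -1.30 and a range from -2.51 (H2AC6) to -0.36 (H1-4). Of the 6, 5 were lower by more than 0.5, against 3.89% of all genes. H2AC6 had the lowest difference of all 19775 genes, H2BC21 (-1.48) was at rank 6 from the lowest, H1-2 (-1.45) at rank 10, H2BC5 (-1.16) at rank 41, H4C8 (-1.06) at rank 54 and H1-4 at rank 1674. The arrays of one group also differed between the sets. The first control array exceeded the second by 1.16 for H2AC6, 1.502 for H2BC21, 0.67 for H4C8, 0.36 for H2BC5 and 0.14 for H1-4, and differed by -0.45 for H1-2. That put 3 of the 6 higher by more than 0.5, against 13.5% of all genes. The control arrays had part in the choice of genes, so this count too only describes them. Between the E2-BSA arrays the first differed from the second by 0.70 for H2BC21, 0.08 for H4C8, -0.31 for H1-4, -0.44 for H2BC5, -0.73 for H2AC6 and -1.73 for H1-2.

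Between the second arrays, 5 of the 6 were lower with E2-BSA (42.2% of all genes were), with a median of -0.41, and 2 were lower by more than 0.5, against 0.207% of all genes. H2BC21 differed by -0.68 (rank 5 from the lowest), H2AC6 by -0.61 (rank 10), H4C8 by -0.47 (rank 67) and H2BC5 by -0.36 (rank 245). H1-2, at -0.16, was at rank 1868, and H1-4 was 0.09 higher with E2-BSA. H2AC6, H2BC21, H2BC5 and H4C8 were thus lower than in the matched control array in both pairs without an antagonist. With the BSA array as reference, the second E2-BSA array differed by -0.69 for H2BC21 and -0.54 for H2AC6. H2BC5 (-0.23) and H4C8 (-0.10) were there near the median gene (-0.17). Of the linker genes, H1-2 was lower mainly in the first pair (-1.45). Among the pairs without an antagonist H1-4 was lower only in the first, by a smaller difference (-0.36). With G15 in both arrays the difference of H1-4 was larger (-1.35).

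With an antagonist present in both arrays of the pair, the signs were mixed, though H2AC6 and H1-2 were lower with ICI and with G15. In the ICI background the 6 genes had a median of -0.02, 3 were lower (53.1% of all genes were), and 0 were lower by more than 0.5 (0.688% of all genes): H2AC6 differed by -0.11, H2BC21 by 0.28, H4C8 by -0.41, H1-2 by -0.04, H2BC5 by 0.0038 and H1-4 by 0.0010. In the G15 background the median was -0.05 and the genes spread widely, with H1-4 at -1.35, H1-2 at -0.31, H2AC6 at -0.23, H2BC21 at 0.14, H2BC5 at 0.40 and H4C8 at 0.87. There 3 of the 6 were lower (65.2% of all genes were), 1 by more than 0.5 (6.06%), and 1 was higher by more than 0.5 (1.61%). The array with E2-BSA and G15 also had the highest spike-in mean of the set of 8 (0.10); the part of that array in these values was not tested. Whether the difference made by E2-BSA depends on an antagonist was not tested either, since it rests on the contrast that chose the genes.

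**Figure D2:**
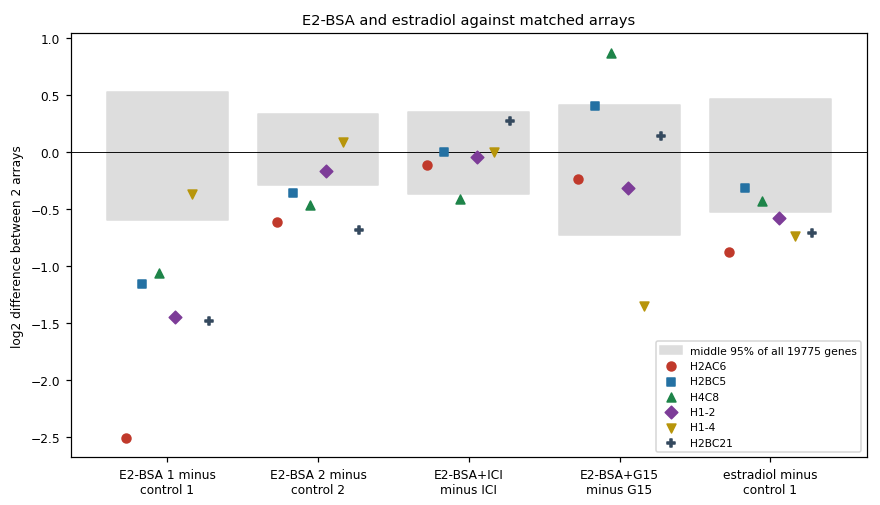
Difference of each histone gene between an array with E2-BSA or estradiol and its matched array, on the log2 scale; symbols are genes and the grey boxes hold the middle 95% of all genes. In the first pair 5 of the 6 genes lie below the box, which ends at -0.59, and in the ICI background H4C8 alone lies below it.

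The same readings can be made from the side of the antagonists. The array with E2-BSA and ICI exceeded the second E2-BSA array by 1.03 for H2BC21, 0.93 for H2AC6, 0.58 for H1-2, 0.41 for H1-4 and 0.26 for H2BC5, and differed by -0.25 for H4C8. Of the 6, 3 were higher by more than 0.5, against 3.07% of all genes. The array with E2-BSA and G15 exceeded the second E2-BSA array by 0.92 for H4C8, 0.82 for H2BC21, 0.69 for H2AC6, 0.53 for H2BC5 and 0.32 for H1-2, and differed by -0.63 for H1-4. Here 4 of the 6 were higher by more than 0.5, against 1.25% of all genes, and 1 was lower by more than 0.5, against 2.82%. These comparisons share the second E2-BSA array, whose low values were part of the choice of genes. Against the BSA array all 6 genes were lower in the second E2-BSA array, as were 78.8% of all genes, with H2BC21 at -0.69 and H2AC6 at -0.54 past 0.5 (5.62% of all genes) and the other 4 between -0.23 and -0.10. H4C8 was at -0.10 there, and its probe sets stood at -0.46 and 0.26.

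Free estradiol at the same dose of 1 µM was not part of the choice, but it shares the first control array with the first pair. Both that control array and the first E2-BSA array had part in the choice of genes. Differences from either are pushed by that choice, so the counts below only describe the genes. All 6 genes were lower in the estradiol array than in the first control array, where 51.7% of all genes were lower. H2AC6 differed by -0.87, H1-4 by -0.73, H2BC21 by -0.71, H1-2 by -0.58, H4C8 by -0.43 and H2BC5 by -0.32. Of the 6, 4 were lower by more than 0.5, against 2.98% of all genes. Set against the estradiol array, the first E2-BSA array was lower in 5 of the 6, by more than 0.5 in each (3.18% of all genes), with H2AC6 at -1.64, H1-2 at -0.87, H2BC5 at -0.84, H2BC21 at -0.77 and H4C8 at -0.63. H1-4 was 0.37 higher in the first E2-BSA array. The ethanol array, the vehicle of estradiol, lies in the set of 8, so estradiol and its vehicle cannot be compared within a set.

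Treatments other than E2-BSA were compared with control in limma, fitted over the 11 arrays with a term per treatment and one for the array set, which left 3 residual degrees of freedom. This fit is not free of the arrays that chose the genes, since the E2-BSA arrays help to set the control level, the set term and the antagonist terms. Without any array that holds E2-BSA, alone or with an antagonist, a fit with the set term would have no residual degrees of freedom. No test free of E2-BSA arrays could therefore be made. A fit that leaves out only the E2-BSA arrays without an antagonist was not run. None of the 6 genes passed for estradiol, ICI, G15, BSA or ethanol against control, and in this fit none had an unadjusted p under 0.05. The fit gives E2-BSA 1 difference over 4 pairs, so disagreement between the pairs enters the spread and every SE. For H2AC6 the pairs stood at -2.51, -0.61, -0.11 and -0.23, and the choice of genes rested on such values. Not passing therefore does not show that a gene kept its level. The share of all genes that passed was 0.0% for estradiol, ICI and G15, 0.354% for BSA and 0.086% for ethanol. Before adjustment 1397 genes had p under 0.05 for estradiol, 3219 for ICI and 2042 for G15. For estradiol H1-4 was at -0.76 ± 0.39 (SE, limma adjusted p = 0.80) and H2AC6 at -0.05 ± 0.63 (adjusted p = 0.999). The fit takes the control level of the set of 3 from both duplicated groups and an E2-BSA difference averaged over 4 pairs, so its value for H2AC6 is not the direct difference of -0.87. Without the first E2-BSA array the fitted value was -0.87, and without the first control array it was 1.32. The latter fit also put H2BC5 at 0.86, H1-2 at 0.70, H2BC21 at 0.68 and H4C8 at 0.63 for estradiol, and H1-4 at -0.79.

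For ICI the fitted difference of H2AC6 was 0.68 ± 0.50 (SE, limma adjusted p = 0.48), that of H2BC21 0.55 ± 0.37 (adjusted p = 0.45), that of H1-2 0.51 ± 0.30 and that of H1-4 0.46 ± 0.30. The direct differences of the ICI array from the second control array were 0.43 for H2AC6, 0.08 for H2BC21, 0.45 for H1-2 and 0.50 for H1-4, where the median gene differed by 0.16. H1-4 was the 1 gene of the 6 higher by more than 0.5, as were 4.16% of all genes. It was also the 1 gene of the 6 higher by more than 0.5 in the G15 array than in the second control array (0.81), against 4.41% of all genes. None of the 6 lay more than 0.5 from the second control array with BSA (1.19% of all genes lower, 7.38% higher) or with ethanol (1.29% lower, 2.19% higher). For H4C8 with BSA this is a mean of probe sets at 0.11 and -0.84. With group means and a term for the set, in which the E2-BSA arrays still enter through the set term, H2AC6 was at -0.046 and H2BC21 at -0.12 for ICI. For G15 the fitted values ran between 0.09 (H1-4) and 0.50 (H2AC6), with a median over all genes of 0.10. The direct difference of the G15 array from the second control array was 0.31 for H2AC6 and -0.42 for H4C8, whose probe sets stood at -1.02 and 0.18. With group means and the set term, H1-4 was at 0.69 ± 0.19 and H4C8 at -0.56 ± 0.21 for G15 (SE, limma adjusted p = 0.39 for both, unadjusted p = 0.0075 and 0.030), against 0.09 and 0.25 in the additive fit. In the additive fit the values for BSA ran between -0.26 (H4C8) and 0.13 (H2BC21), with a median over all genes of 0.17, and for ethanol between -0.09 (H4C8) and 0.39 (H2BC21).

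The fitted difference between the array sets is the mean of the differences between the control arrays and between the E2-BSA arrays given above, so it too holds values that chose the genes and is given for them with no test. H1-2 was at -1.09 ± 0.30 (SE) in the set of 3 against the set of 8 and H2BC21 at 1.10 ± 0.37, and the other 4 lay between -0.08 (H1-4) and 0.38 (H4C8). Without the first E2-BSA array the value of H1-2 was -0.45. H2AC6 changed its side with the array left out, at -0.88 without the first control array and 1.31 without the first E2-BSA array. Genes of S phase replication differed between the sets: 13 of 23 measured members passed as lower in the set of 3 and 2 as higher, against 1983 and 2789 of all 19775 genes. MCM5 and MCM2, subunits of the replicative helicase, were at -1.37 ± 0.15 (limma adjusted p = 0.00088) and -1.27 ± 0.14 (limma adjusted p = 0.00098). The part of the S phase genes in the set difference of H1-2 was not tested, and in RNA from a whole culture fewer cells in S phase and less RNA per cell cannot be told apart. The sets were parted by spike-in signal alone. A difference between the cells therefore cannot be told apart from a technical difference between the arrays either.

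**Figure D3:**
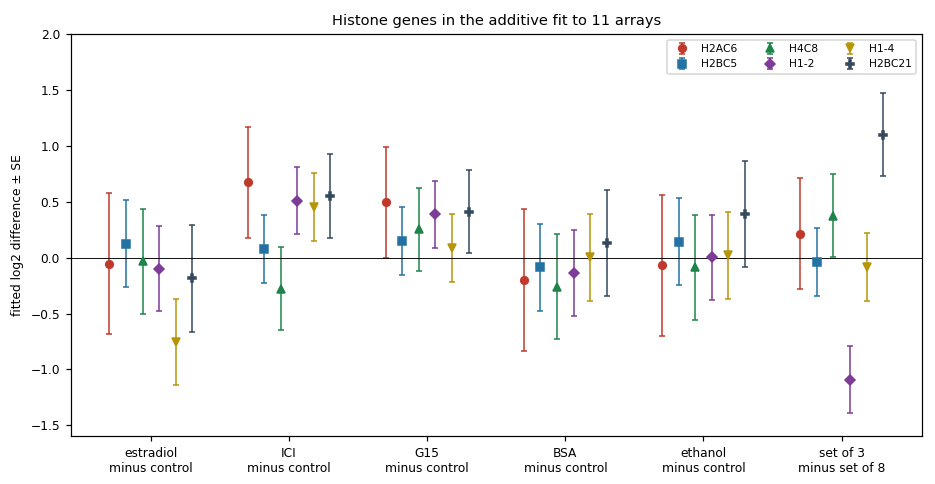
Fitted log2 difference of each histone gene for 5 treatments against control and for the set of 3 against the set of 8, with bars of 1 SE from the limma fit to 11 arrays. The lowest value is that of H1-2 between the sets, at -1.09, and the highest that of H2BC21 there, at 1.10.

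The 6 genes were then placed among the other histone genes. Of 69 listed replication-dependent histone genes 42 were measured by a probe set of their own, 36 core and 6 linker genes. Leaving out the genes described here, 5 of the 32 other core histone genes were lower by more than 0.5 in the first E2-BSA array than in the first control array, and 4 were higher by more than 0.5, with a median of -0.0005 where the median of all genes was -0.0025. All 5 were H2B genes, named after their values were seen: H2BC4 at -1.53, H2BC9 at -0.999, H2BC6 at -0.98, H2BC12 at -0.77 and H2BC11 at -0.53. With H2BC5 and H2BC21 they made 7 of 13 measured H2B genes. In the other classes this held for H2AC6 of 8 H2A genes, for none of 7 H3 genes, for H4C8 of 8 H4 genes and for H1-2 of 6 linker genes. The largest positive differences were those of H3C7 (0.78) and H4C13 (0.54). Between the second arrays 1 of the 32, H2BC4 at -0.66, was lower by more than 0.5, against 0.207% of all genes.

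H2BC4 is the divergent partner of H2AC6, with which it shares the promoter bases given above. It stood at -1.28 in the first E2-BSA array, -0.26 with estradiol and 0.25 in the first control array. In the set of 8 it stood at -0.26 in the second E2-BSA array and 0.40 in the second control array, and at 0.04 with E2-BSA and ICI, 0.32 with ICI, -0.40 with E2-BSA and G15, 0.27 with G15, 0.21 with BSA and -0.17 with ethanol. Unlike H2AC6 and H2BC21, its lowest array of the set of 8 was that with E2-BSA and G15, which was 0.67 below G15 alone (a difference of -0.67). H2AC20, the partner of H2BC21, had no probe set of its own.

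**Figure D4:**
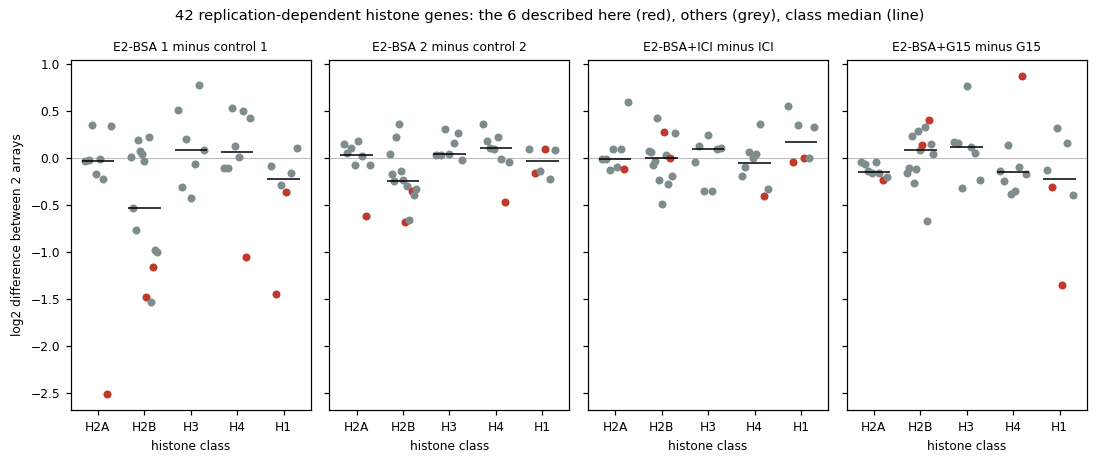
Difference on the log2 scale between arrays with E2-BSA and their matched arrays for 42 replication-dependent histone genes by class, with the class median as a line. In the first pair the median H2B gene was at -0.53 and the median H3 gene at 0.08; in the ICI background the medians of the 5 classes lay between -0.05 and 0.17.

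Genes that work on histones were read against the share of all genes lower by more than 0.5 between the first arrays, 3.89%, which is less than 1 gene in a list of about 20, so that a count of 0 is near it. Between the first arrays 0 of 23 S phase replication genes were lower by more than 0.5 and the median was 0.21, with UHRF1, which maintains DNA methylation at the fork, at 0.57 and the polymerase subunit gene POLA1 at 0.47 at the upper end and TK1, the thymidine kinase of S phase, at -0.10 at the lower end. Of 17 genes of histone transcription and messenger 3′ end processing 0 were lower by more than 0.5 (median 0.09), with the cyclin genes CCNE1 at -0.32 and CCNE2 at 0.47. Of 19 histone chaperone genes 0 were lower by more than 0.5 (median 0.06), with HJURP, the chaperone of the centromeric histone, at -0.16 and CHAF1A, a subunit of chromatin assembly factor 1, at 0.39. In the G15 background, where 6.06% of all genes were lower by more than 0.5, this held for 6 of the 19 chaperone genes, 3 of the 17 processing genes and 1 of the 23 S phase genes, with medians of -0.24, -0.29 and 0.03. Among 9 replacement variants, which are made outside S phase too, 1 was lower and 1 higher by more than 0.5 between the first arrays. These were the linker variant H1-10, at -0.82, and MACROH2A2, at 0.72. In the G15 background 2 of the 9 were lower by more than 0.5 and 0 were higher. In the limma fit 0 members of these 4 lists and of the core and linker lists passed for estradiol, ICI, G15, BSA or ethanol against control. Between the array sets 3 of the 9 replacement variants passed as lower in the set of 3 and 0 as higher. They were H1-10 (-1.42 ± 0.22), H3-3A (-1.24 ± 0.18) and H2AX (-0.89 ± 0.12), with limma adjusted p = 0.0031, 0.0026 and 0.0019. Of the 17 processing genes 3 passed as higher and 2 as lower. Among the higher was SLBP, whose product binds the histone stem-loop (0.56 ± 0.12, limma adjusted p = 0.012). Of the 19 chaperone genes 7 passed as lower and 2 as higher. Of 36 core histone genes 2 passed as lower there, H2AC4 (-0.60) and H2BC11 (-0.57), and 2 as higher, H2BC13 (0.59) and H4C11 (0.42). Over all 19775 genes 24.1% passed between the sets, 1983 genes as lower and 2789 as higher.

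Among themselves, H2AC6, H2BC21, H2BC5 and H1-2 ran closely together once each gene's mean in its set was taken off, with Pearson correlations over the 11 arrays between 0.77 and 0.98. H4C8 correlated with these 4 at 0.44 to 0.82, and H1-4 at -0.13 to 0.43. These correlations lean on the first E2-BSA and first control arrays, which lie at opposite ends. The mean of the 6 genes was -0.75 in the first E2-BSA array, -0.02 with estradiol and 0.58 in the first control array, and -0.35 in the second E2-BSA array against a range from -0.03 (BSA) to 0.19 (ICI) in the other 7. The 10 other genes whose values followed this mean most closely, by the same measure, were LOC730101 (0.97), METTL23 (0.96), the cytidine deaminase gene CDA (0.96), LINC02482 (0.95), the tissue plasminogen activator gene PLAT (0.95), EFCAB2-AS1 (0.94), FAM24B (0.94), MINCR (0.94), SIAE (0.93) and MGAT2 (0.92). CDA differed by -1.46 between the first E2-BSA and first control array and by -0.23 between the second arrays.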

How the data were processed

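RNA was hybridised to Affymetrix HG-U133 Plus 2.0 arrays, per the labels and the design text. The deposited values are log2 values centred per probe set: the log base, summarisation and normalization are not given in the sources used here, the base was taken as 2, and 51.7% of 54675 probe sets hold a pair of values of opposite sign and equal size (to 1e-05) next to 0, as centring on a median leaves. The number of arrays limits the precision. A gene is the mean of its probe sets with 1 gene symbol (41091). No normalization between arrays was added.

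Two-sided tests were run in limma 3.58.1 under R 4.3.3 with eBayes' trend option, p-values were adjusted by Benjamini-Hochberg across all 19775 genes (threshold 0.05), and the BSA contrast of the fit was checked on simulated data, where the share of false calls came out somewhat above the nominal one. Recovery in the other contrasts was not checked. The main fit was additive, with a term for the array set; in control and E2-BSA the set coincides with the replicate number, so the term is also the block that pairs them. The pairing comes from the spike-in sets, and the labels give no shared culture or day. Members and lists were chosen with earlier results of these data known. Genes named are the members, some of the extremes and called genes of 6 listed groups, and the 10 genes most like the members.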

Additional observations from a re-analysis of the deposited data

Results flagged for a closer look

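In 2 genes the difference between E2-BSA and its matched array was below 0 in both pairs without an antagonist and above 0 in both pairs with one. H2BC21 differed by -1.48 and -0.68 without an antagonist and by 0.28 and 0.14 in the ICI and G15 backgrounds, so that the mean without an antagonist was below the mean with one by a difference of -1.29. H2BC5 differed by -1.16 and -0.36 without an antagonist and by 0.0038 and 0.40 with ICI and G15, a difference of means of -0.96. The ICI value of H2BC5 gives no direction, since its probe sets stood at -0.03 and 0.04 there. Neither difference was tested, because the pairs without an antagonist had chosen the genes.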

How the results depend on the processing

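No member passed for estradiol, ICI, G15, BSA or ethanol under any alternative fit run, with quantile normalization, arrays centred on their median, no trend, the widest probe set, a range filter, group means or 1 duplicate left out. Not passing is limited here too by the disagreement between the E2-BSA pairs, which enters the SE of the additive fits. Of 456 single-gene values under alternatives, 72 had another sign than the reported one, and in 11 of these the reported value exceeded its SE. Without a replicate block (no term for the set), ICI stood at -0.15 for H2AC6 and -0.68 for H2BC21, and G15 at -0.75 for H2BC21. With the replicate block and group means these were -0.046, -0.12 and -0.20, and the fitted E2-BSA difference of H2AC6 was -1.56 in both group means fits against -0.87. Without the first control or the first E2-BSA array that difference was -0.32, with H2BC5 at 0.017 and H4C8 at 0.0002. With any 1 duplicate left out, these 2 ran from -0.25 and -0.20 up to those values, and H4C8 between the sets ran from -0.15 to 0.91. Quantile normalization put the median of the first pair at -0.90, and single probe sets put that of the G15 background at 0.24. Genes called changed as follows: for ICI 2 with quantile normalization; for BSA 0 without a replicate block, 179 with the widest probe set and 4 to 58 with 1 array left out; for ethanol 0, 3 and 0 to 15 in that order and 41 with quantile normalization; for the sets 1332 to 3610 with 1 array left out. Members called between the sets were 2 with the replicate block and group means, 2 with the range filter, 0 with the widest probe set and 0 to 2 with 1 array left out; These calls rest in part on the E2-BSA arrays that chose the genes. With the replicate block and group means G15 put H4C8 at -0.56. Leaving out a duplicate gave 0 calls for estradiol and ICI. The values hold no signal over background, so dim probe sets could not be left out.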
